A study of Mus musculus with 18 samples.

Results

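The data described here are the transcriptomes of resting macrophages that were given dimethyl itaconate and no bacterial stimulus. They comprise 6 of the 18 libraries of the series, 3 with the compound and 3 with vehicle, and were chosen by their labels alone: no measured value entered the choice. All 24052 genes of the deposited count table were considered, and 10318 had enough counts to be tested. The cells were bone marrow-derived macrophages, which are grown from marrow precursors with the growth factor M-CSF. Here marrow of wild-type C57BL/6 mice was matured with 20 ng/ml recombinant M-CSF for 7 days, and this holds for both groups. The compound group received 0.25 mM dimethyl itaconate for 12 h and the vehicle group received vehicle alone. In 6 further libraries of the same experiment the same treatments were followed by 100 ng/ml LPS, the endotoxin of E. coli 0111:B4, for 4 h. Those libraries were used here to ask whether the genes found without LPS moved the same way with it. The labels name neither the vehicle nor the time at which unstimulated cells were collected relative to the stimulated ones. They also do not say whether replicates are separate animals or separate cultures, so the p-values speak of the scatter among these libraries, which may be technical.

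Itaconate is a dicarboxylic acid that macrophages make from the TCA cycle intermediate cis-aconitate through the enzyme ACOD1, also called IRG1. It inhibits succinate dehydrogenase, and its dimethyl ester enters cells readily and is a reactive electrophile. Electrophiles modify cysteines of KEAP1, the adaptor that marks the transcription factor NRF2 for degradation; NRF2 then pairs with small MAF proteins on antioxidant response elements and drives genes for glutathione synthesis, peroxide removal and detoxification. Resting macrophages also keep a low tonic interferon signal that sustains part of their interferon-stimulated genes, and they carry receptors for antibodies, complement and chemokines.

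Depth lay between 2228760 and 7629669 counts per library, and 3 counts corresponded to 0.393 to 1.35 CPM (counts per library scaled to one common total). Vehicle replicate 2 was the least deep and stood apart from the other vehicle libraries: the first principal component (46.6% of the variance) separated the groups, and on the second (23.8%) vehicle replicate 2 and compound replicate 2 lay on one side and the other 4 libraries on the other. No 2 libraries were identical. Levels below are CPM scaled by TMM, which corrects library totals for composition, and are listed in the order of replicates 1, 2 and 3. Changes are given as a fold or as a log2 value ± its standard error, and adjusted p-values come from edgeR's quasi-likelihood test with Benjamini-Hochberg adjustment over the 10318 genes. A gene is said to rise or fall when its adjusted p was under 0.05.

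Markers of macrophages were detected in every library. Of the 10 fixed markers, all were tested. Cd68, a lysosomal glycoprotein, was at 405, 275 and 336 CPM with vehicle and 379, 199 and 364 CPM with the compound, with groups that overlapped, and it did not pass. The list as a whole leaned down: 4 of the 10 fell (Csf1r, Adgre1, Fcgr1 and Cd14), against 4.43% of all genes tested, none rose and 8 lay below 0. Its median log2 fold change was -0.65, against -0.03 over all genes tested. The summed level of the list in unscaled CPM was 8922 to 12453 with vehicle and 5183 to 6569 with the compound. Markers of other cells were low. Their sums, also in unscaled CPM, were lower with the compound without overlap, except for stromal, mast cell and endothelial markers, whose ranges overlapped. TMM factors were 1.00 to 1.14 with vehicle and 0.87 to 0.97 with the compound, so unscaled sums show a larger drop than scaled ones would. Neutrophil markers summed to 442 to 596 CPM with vehicle and 222 to 375 CPM with the compound, dendritic cell markers to 36.6 to 83.5 and 16.6 to 32.3, and stromal markers to 74.3 to 136 and 57.0 to 82.0. Single members that fell were Retnlg of the neutrophil list (4.29-fold, adjusted p = 0.0051) and Col3a1 of the stromal list (5.21-fold, adjusted p = 0.0088). The call for Col3a1 was lost without vehicle replicate 3 (adjusted p = 0.062). T and NK cell markers summed to 4.85 to 7.18 and 1.05 to 1.57 CPM, with Cd3e, Cd8a, Gzma, Klrb1c, Ncr1 and Nkg7 at 0 in all 6 libraries. Most of that sum was Cd4, which fell from 3.88, 6.27 and 4.78 to 0.929, 1.54 and 0.973 CPM (adjusted p = 0.037). Its call was lost in each of the 6 fits that left out 1 library (highest adjusted p = 0.13). B cell markers summed to 1.83 to 4.71 and 0.901 to 1.53 CPM, with Cd79a, Pax5 and Igll1 at 0. Mast cell and endothelial markers summed to at most 5.04 CPM in any library. Eosinophil markers summed to 23.1 to 27.8 and 3.25 to 6.82 CPM, most of it Ccr3, with Epx and Il5ra at 0. Megakaryocyte and erythroid markers summed to 89.7 to 112 and 58.6 to 74.8 CPM, most of it Pf4, with 8 of 10 at 0. Whether a change in the mix of cells contributed to any gene described below was not tested, and in bulk RNA fewer cells of a type and less RNA per cell cannot be told apart.

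Dimethyl itaconate alone changed close to 1 in 10 of the expressed genes, in both directions. Genes that rose included members of glutathione synthesis, quinone detoxification, the chaperones, the serpins and the matrix proteases, and genes that fell included complement components, Fc and chemokine receptors, MHC class II genes and part of the interferon-stimulated genes. In counts, 533 genes rose and 457 fell, which is 5.17% and 4.43% of those tested (9.59% together). At least 2-fold changes were found for 394 of the genes that rose and 400 of those that fell, at least 4-fold for 77 and 102, and at least 8-fold for 26 and 22. In 530 of the 533 and 451 of the 457 the 3 compound libraries did not overlap the 3 vehicle libraries, which over all genes tested held for 15.2% upward and 15.3% downward. Genes that rose took 8.88% of the scaled counts in vehicle libraries and 23.2% in compound libraries, and genes that fell took 7.23% and 2.89%. Genes at the threshold were Gmcl1 and Slk just inside (adjusted p = 0.0496 and 0.0499) and Fxr1 and Aff1 just outside (both 0.0501).

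The split between rises and falls depended on scaling. With TMM 53.8% of the calls were rises, and with upper quartile factors, which moved the median of all genes from -0.03 to -0.13 on the log2 scale, 400 genes rose and 584 fell, so that 40.7% were rises. Leaving out 1 library in turn gave 287 to 559 rises and 262 to 474 falls, lowest for both without compound replicate 1 and highest without vehicle replicate 2. For genes described individually, the text says where a call was lost in such a fit: of 220 called genes in the lists and among those named, 135 were called in all 6 of them and 85 were not. When the spread was estimated over all 12 libraries of the experiment, LPS groups included, 137 genes rose and 155 fell.

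**Figure D1:**
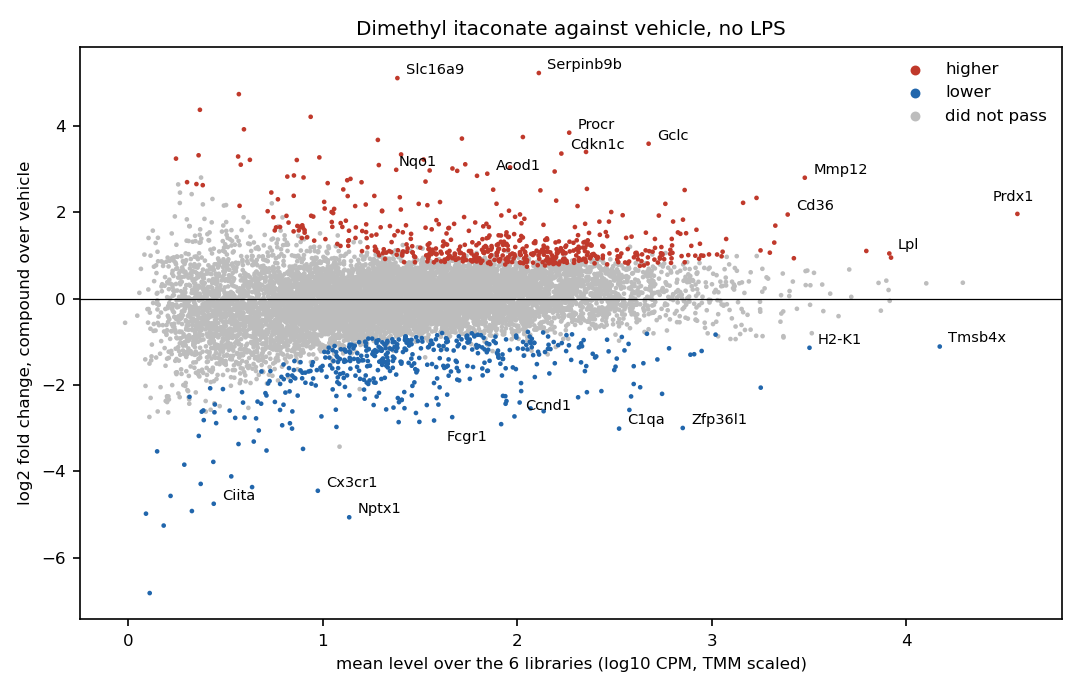
Log2 fold change of each of the 10318 genes tested (compound over vehicle, vertical axis) against its mean level over the 6 libraries (log10 CPM, horizontal axis). Red points are the 533 genes that rose, blue points the 457 that fell and grey points those that did not pass. Serpinb9b and Slc16a9 stand at the top, Nptx1 and Cx3cr1 toward the bottom, and Prdx1 at the far right with the most counts.

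Genes that import cystine, build glutathione and recycle it rose, and so did single genes of peroxide removal: a peroxiredoxin, thioredoxin, its reductase, sulfiredoxin and catalase. In the list of glutathione synthesis and cystine import 5 of 9 tested members rose and 1 fell, against 5.17% and 4.43% of all genes tested, and the list's median log2 fold change was 1.60 against -0.03 over all genes. All 6 of these calls were made again in each of the 6 fits that left out 1 library.

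In the order of the pathway, Slc7a11, the cystine importer, was at 6.01, 5.38 and 10.4 CPM with vehicle and 76.97, 59.95 and 152 CPM with the compound. Its groups did not overlap, and it rose 13.1-fold (log2 3.71 ± 0.39, adjusted p = 5.5e-05). Gclc, on chromosome 9 from 77754535 to 77794489 (GRCm38), encodes the catalytic subunit of glutamate-cysteine ligase, the first and rate-limiting step of glutathione synthesis. It went from 63.7, 42.1 and 111 to 1063, 654 and 905 CPM and rose 12.04-fold (log2 3.59 ± 0.36, adjusted p = 3.7e-05). Gclm, its regulatory subunit, went from 499, 352 and 833 to 3046, 2574 and 2879 CPM, a 5.04-fold rise. Gss, which completes glutathione, went from 6.14, 11.6 and 7.27 to 55.9, 66.1 and 65.3 CPM, 7.83-fold. Every compound library was above every vehicle library for these 4 genes. Gsr, the reductase that regenerates glutathione, rose 3.02-fold (adjusted p = 0.004). Glrx, a glutaredoxin, fell from 45.5, 45.7 and 30.8 to 17.2, 17.6 and 8.89 CPM (log2 -1.49 ± 0.31, adjusted p = 0.0082). Slc3a2, the heavy chain that carries Slc7a11 to the membrane, was at log2 0.65 ± 0.27 and did not pass (adjusted p = 0.14).

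Of 18 tested genes for peroxide removal and the thioredoxin system, 5 rose (27.8%), 2 fell (11.1%) and 11 did not pass, with a list median of 0.06. Over all genes tested 5.17% rose and 4.43% fell. Prdx1, a peroxiredoxin that reduces hydrogen peroxide, lies on chromosome 4 from 116685599 to 116700000. It went from 11807, 20260 and 13545 CPM to 52738, 75316 and 49860 CPM and rose 3.901-fold (log2 1.96 ± 0.32, adjusted p = 0.0015). This single gene took 1.34% to 2.03% of all counts in vehicle libraries and 4.70% to 6.55% in compound libraries. Txnrd1, thioredoxin reductase, went from 185, 206 and 256 to 789, 1217 and 1696 CPM, 5.72-fold higher (adjusted p = 0.0002). Srxn1, which repairs over-oxidised peroxiredoxins, went from 145, 140.2 and 151 to 396, 475 and 402 CPM, 2.91-fold higher (adjusted p = 0.00084). Groups did not overlap for any of the 3. Cat, catalase, rose 2.42-fold and Txn1, thioredoxin, 2.06-fold (adjusted p = 0.0082 and 0.015). The glutathione peroxidases went the other way: Gpx1 fell by 1.05 and Gpx3 by 1.00 on the log2 scale (adjusted p = 0.016 and 0.031), while Gpx4 was at log2 -0.07 and did not pass. Leaving out 1 library at a time, the call for Txn1 was lost without vehicle replicate 1 (adjusted p = 0.059), that for Gpx1 was lost without compound replicate 2 or 3 (highest adjusted p = 0.079) and that for Gpx3 was lost without compound replicate 1, 2 or 3 or vehicle replicate 1 or 3 (highest adjusted p = 0.1). Prdx1 has processed copies in the genome, so the assignment of its reads is uncertain.

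**Figure D2:**
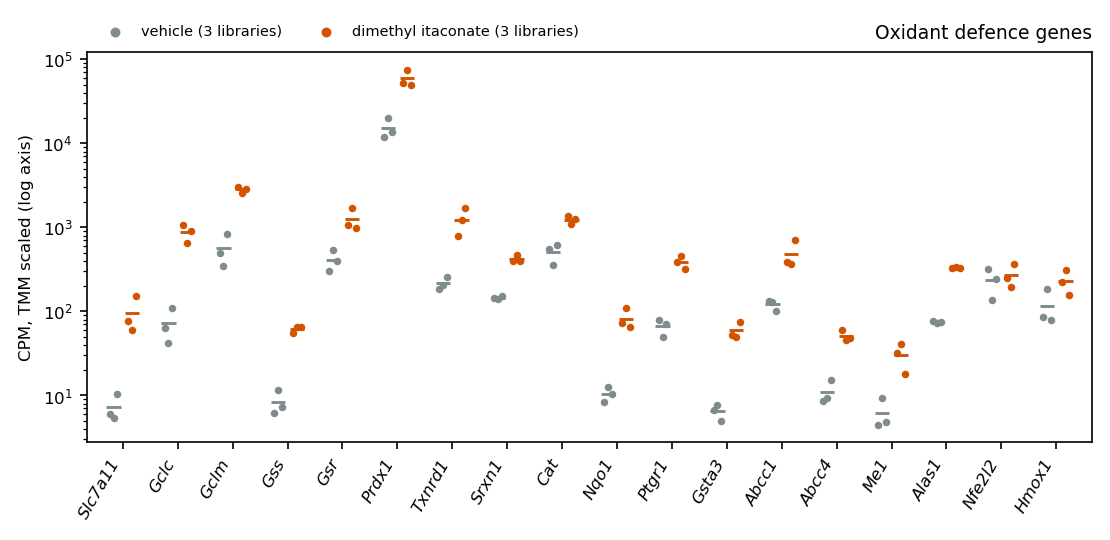
CPM of 18 oxidant-defence genes in each of the 6 libraries (log axis), grey for vehicle and orange for dimethyl itaconate, with a bar at the mean of 3 libraries. Orange lies above grey without overlap for all genes except Nfe2l2 and Hmox1, the last 2, whose groups overlap.

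The plot of oxidant-defence levels by library shows the separation gene by gene, with Alas1, Srxn1 and Gss among those whose libraries lay close together within a group. Of 19 tested genes that detoxify quinones, carbonyls and reactive alkenals 8 rose (42.1%) and 1 fell (5.26%). Over all genes tested 5.17% rose and 4.43% fell, and the list median was -0.16. Nqo1, the NAD(P)H quinone reductase, went from 8.27, 12.5 and 10.4 to 71.9, 110.5 and 64.6 CPM, 8.09-fold (log2 3.02 ± 0.30, adjusted p = 3.7e-05). Ptgr1, which reduces the double bond of enals, went from 78.9, 49.3 and 70.9 to 385, 461 and 322 CPM, 5.83-fold (adjusted p = 5.5e-05). The exporters of glutathione conjugates and organic anions Abcc1 and Abcc4 rose 4.02-fold and 4.58-fold, and the reductases Akr1b8, Cbr3 and Akr1a1 and the hydrolase Esd completed the set at 2.82-fold, 2.32-fold, 2.002-fold and 2.61-fold. Of the 8, the call for Akr1a1 was lost without compound replicate 1 or vehicle replicate 3 (highest adjusted p = 0.12) and the others were kept with each library left out. The carbonyl reductase Cbr2 was at 2.505, 3.14 and 2.08 CPM with vehicle and at 0 in all compound libraries, at least 14.9-fold lower taking 3 counts over the group as the floor (adjusted p = 0.0066). Among 15 tested glutathione transferases 2 rose (13.3%) and 1 fell (6.67%), against 5.17% and 4.43% of all genes tested. Gsta3 went from 6.76, 7.62 and 4.99 to 52.7, 49.8 and 75.9 CPM, 9.34-fold higher (log2 3.22 ± 0.30, adjusted p = 2.5e-05), and Gstm1 rose 2.14-fold (adjusted p = 0.011, lost without compound replicate 1, adjusted p = 0.053).

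Of 15 tested NADPH-making enzymes, which power these reductases, 3 rose (20%) and 1 fell (6.67%), against 5.17% and 4.43% of all genes tested. The list median was 0.10. Me1, malic enzyme, went from 4.51, 9.41 and 4.78 to 31.9, 41.5 and 18.2 CPM (5.21-fold, adjusted p = 0.0016). Pgd, of the pentose phosphate pathway, rose 2.29-fold and Mthfd2, a mitochondrial folate enzyme, 3.19-fold. Nadk, the NAD kinase, fell by 1.08 on the log2 scale (adjusted p = 0.0081). G6pdx, the entry enzyme of the pentose phosphate pathway, was at log2 0.53 and did not pass. In haem and iron handling 2 of 17 rose (11.8%) and 1 fell (5.88%), against 5.17% and 4.43% of all genes tested. Alas1, the first enzyme of haem synthesis, went from 76.9, 73.01 and 75.4 to 327, 339 and 332 CPM, 4.42-fold higher (log2 2.15 ± 0.23, adjusted p = 5.5e-05), with the 3 compound libraries within a narrow range. Hmox1, which breaks haem down and is a classical NRF2 target, was at 85.9, 183 and 79.2 CPM with vehicle and 224, 309.9 and 157 CPM with the compound. Its groups overlapped through vehicle replicate 2, and it did not pass (log2 1.00 ± 0.34, adjusted p = 0.078). The ferritin chains Fth1 and Ftl1 were at log2 0.37 and 0.68 and did not pass.

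The transcript of NRF2 itself, Nfe2l2, was at 322, 138 and 241 CPM with vehicle and 247, 194 and 369 CPM with the compound, and its groups overlapped (log2 0.21 ± 0.32, adjusted p = 0.73). Genes of the machinery around it did rise: 5 of 12 tested (41.7%), against 5.17% of all genes tested, with a list median of 0.77. They were Keap1, the repressor of NRF2 (87.04, 74.4 and 94.98 to 158, 157 and 200.1 CPM, 2.003-fold, adjusted p = 0.015), Cul3, the ubiquitin ligase scaffold that KEAP1 recruits (2.45-fold), Mafg, a small MAF partner (2.26-fold), Bach1, a competing repressor (1.81-fold), and Sqstm1, the autophagy adaptor that binds KEAP1 (2.34-fold). The call for Keap1 was lost without compound replicate 3 (adjusted p = 0.063), that for Mafg was lost without compound replicate 2 (adjusted p = 0.052) and that for Bach1 was lost in each of the 6 fits that left out 1 library (highest adjusted p = 0.12). Bach1 also missed the threshold with upper quartile factors in place of TMM (adjusted p = 0.074).

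The promoters of 3 of the rising genes are shown because each holds the core letters of the antioxidant response element, TGACNNNGC, searched on both strands. Each sequence is the stretch of 250 bases before the start of the gene in the RefSeq annotation of GRCm38.p6, written 5′ to 3′ on the strand of the gene with the match in capitals, as TGACNNNGC or as its reverse complement. The Prdx1 sequence lies at chr4:116685349-116685598 (plus strand), Gclm at chr3:122245307-122245556 (plus strand) and Txnrd1 at chr10:82858956-82859205 (plus strand).
Prdx1: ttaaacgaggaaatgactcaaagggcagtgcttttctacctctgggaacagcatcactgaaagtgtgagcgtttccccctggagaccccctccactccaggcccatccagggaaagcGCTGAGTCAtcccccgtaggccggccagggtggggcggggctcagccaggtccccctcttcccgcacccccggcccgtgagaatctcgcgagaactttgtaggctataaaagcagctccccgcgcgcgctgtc
Gclm: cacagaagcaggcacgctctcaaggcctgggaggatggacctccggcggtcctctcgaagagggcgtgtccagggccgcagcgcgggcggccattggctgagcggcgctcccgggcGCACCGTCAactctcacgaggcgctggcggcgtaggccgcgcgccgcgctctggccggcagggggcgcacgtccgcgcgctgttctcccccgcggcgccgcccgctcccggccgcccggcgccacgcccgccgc
Txnrd1: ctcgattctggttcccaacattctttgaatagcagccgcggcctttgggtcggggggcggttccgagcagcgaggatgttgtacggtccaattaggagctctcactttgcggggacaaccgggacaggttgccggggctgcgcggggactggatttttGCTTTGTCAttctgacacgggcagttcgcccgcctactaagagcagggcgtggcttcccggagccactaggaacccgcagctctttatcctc
The matches begin 133, 134 and 92 bases before the start. Over windows of 250 bases before to 50 after the start, 9 of the 27 genes of the oxidant lists that rose and have a promoter entry held the core (Abcc4, Gclm, Gsta3, Mafg, Me1, Pgd, Prdx1, Srxn1 and Txnrd1), which is 10 of their 34 promoters. Of the promoters of list members that did not rise 12 of 95 held it. For comparison, it was in 12.4% of all promoters in the table, in 14.6% of the promoters of all genes tested, in 16.7% of those of genes that rose and in 14.8% of those of genes that fell. A match is a string of letters and not a shown binding site.

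Some stress genes outside oxidant defence rose as well. They were chaperones of the cytosol and of the endoplasmic reticulum, amino acid response genes and zinc genes, each a minority of its list, and no tested member of these 4 lists fell. The shares that rose were 40% of cytosolic and mitochondrial chaperones, 22.7% of endoplasmic reticulum genes, 17.2% of amino acid response genes and 27.3% of zinc genes. Over all genes tested 5.17% rose and 4.43% fell. Of 20 tested cytosolic and mitochondrial chaperones 8 rose, with a median of 0.77. Hsp90aa1, the inducible HSP90, went from 974, 1557 and 1099.7 to 2939, 3629 and 2367 CPM (2.46-fold, adjusted p = 0.009), and Hsp90ab1, its constitutive form, from 2899, 5411 and 3546 to 7995, 10855 and 6659 CPM (2.15-fold, adjusted p = 0.034). Hspa4, Hspa4l and Dnajb4 rose 2.35-fold, 2.38-fold and 2.19-fold. Hspa1a and Hspa1b, the most heat-inducible members, were at log2 0.72 and 0.19 and did not pass; they are near-identical copies, so the split of reads between them is uncertain. Of 22 tested endoplasmic reticulum genes 5 rose (median 0.44): Calr, a calcium-binding chaperone, went from 898, 952 and 1156 to 2807, 4439.6 and 2470.3 CPM (3.23-fold, adjusted p = 0.002), Hyou1 rose 3.101-fold, and Hspa5, Hsp90b1 and Canx rose 2.03-fold, 2.09-fold and 1.798-fold. Of these 13 chaperone calls 6 were made again in every fit that left out 1 library, namely Hspa4, Hspa4l, Hsp90aa1, Dnajb4, Calr and Hyou1. The call for Hsp90ab1 was lost without compound replicate 1 or 2 or vehicle replicate 1 or 3 (highest adjusted p = 0.12), that for Hspa5 lost without compound replicate 1 or 2 or vehicle replicate 1 or 3 (highest adjusted p = 0.099), that for Hsp90b1 lost without compound replicate 2 or 3 or vehicle replicate 1 or 3 (highest adjusted p = 0.092) and that for Canx lost in each of the 6 fits that left out 1 library (highest adjusted p = 0.13).

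Of 29 tested genes of the ATF4 pathway, which responds to amino acid shortage and to misfolded protein, 5 rose (median 0.47). Slc7a1, a cationic amino acid importer, rose 4.11-fold, the transcription factor Atf5 3.53-fold and Mthfd2 3.19-fold (adjusted p = 0.0015, 0.0015 and 0.0016). Slc6a9, a glycine transporter, went from 0, 1.34 and 0.624 to 12.1, 3.95 and 5.56 CPM and rose (adjusted p = 0.012, lost without compound replicate 1, adjusted p = 0.079), and so did the pseudokinase gene Trib3 (adjusted p = 0.031, lost without compound replicate 1 or 2 or vehicle replicate 1 or 3, highest adjusted p = 0.14). Asns, Psat1 and Ddit3, commonly read as targets of ATF4, were at log2 0.29, -1.27 and 0.60 and did not pass. Atf4 itself was at 311, 399.6 and 268 and 577, 1009.5 and 402 CPM and did not pass (adjusted p = 0.056). Among metallothioneins and zinc transporters 3 of 11 rose: the zinc exporter Slc30a1 (2.58-fold), the zinc channel Slc39a7 (2.38-fold) and the metal-responsive factor Mtf1 (2.05-fold, lost without compound replicate 1, 2 or 3 or vehicle replicate 3, highest adjusted p = 0.13, and adjusted p = 0.058 with upper quartile factors). Mt1 and Mt2 were at log2 0.58 and 0.79 and did not pass.

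Among genes of macrophage identity and surface equipment those that fell included most tested Fc receptors and chemokine receptors and, among complement genes, mainly secreted components. Of 8 tested Fc receptor genes 5 fell and none rose (median -1.70), of 15 tested complement genes 6 fell and none rose (median -0.49), and of 7 tested chemokine receptors 5 fell and 1 rose (median -2.24). The background is 4.43% of all genes falling and 5.17% rising.

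C1qa, C1qb and C1qc, the 3 chains of complement C1q, lie next to each other on chromosome 4. C1qa (chromosome 4 from 136895916 to 136898844) was at 555, 706 and 519 CPM with vehicle and 74.7, 81.3 and 65.3 CPM with the compound, 8.04-fold lower (log2 -3.01 ± 0.25, adjusted p = 1.7e-05). C1qb went from 875, 564 and 631 to 208, 108 and 183 CPM, 4.14-fold lower, and C1qc from 979, 701 and 1056 to 229, 132 and 233 CPM, 4.604-fold lower (adjusted p = 0.00066 and 0.00034). No compound library reached the lowest vehicle library for any of the 3 chains. C3, the central complement component, fell 3.85-fold, the anaphylatoxin receptor C5ar1 2.82-fold and properdin, Cfp, 2.57-fold (adjusted p = 0.00079, 0.0011 and 0.012, the last lost without compound replicate 1 or 2, highest adjusted p = 0.061). The integrin chains Itgam and Itgb2 of complement receptor 3 were at log2 -0.49 and 0.74 and did not pass.

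Fcgr1, the high-affinity receptor for IgG, went from 137, 142 and 158 to 15.8, 25.7 and 17.1 CPM, 7.49-fold lower (log2 -2.90 ± 0.27, adjusted p = 2.1e-05). Fcgrt, the neonatal Fc receptor that recycles IgG and albumin, went from 146, 174 and 120.1 to 26.2, 25.7 and 29.5 CPM, 5.399-fold lower (adjusted p = 4e-05). The compound libraries of both genes lay far under the vehicle libraries. Fcgr4 fell 3.71-fold, the inhibitory Fcgr2b 2.84-fold and Fcrls 5.08-fold (adjusted p = 0.0017, 0.012 and 0.00048). The call for Fcgr2b was lost without compound replicate 1 (adjusted p = 0.063).. Fcgr3 was at 442, 336 and 487 and 567, 437 and 629 CPM, overlapped between groups and did not pass. Its signalling chain Fcer1g was at log2 -0.71 and did not pass.

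Ccr2, the receptor for monocyte chemoattractant, was at 51.3, 33.1 and 81.1 CPM with vehicle and 5.42, 3.29 and 13.8 CPM with the compound, 7.22-fold lower (adjusted p = 0.0013). Cxcr4 went from 285, 509 and 324 to 74.2, 102 and 72.96 CPM (4.49-fold lower) and the fractalkine receptor Cx3cr1 from 10.4, 25.98 and 17.7 to 1.08, 1.098 and 0.278 CPM (21.8-fold lower, adjusted p = 0.00023). Ccr3 fell 4.72-fold. Ccr1, a receptor for CCL3 and CCL5, rose from 6.39, 1.79 and 4.16 to 15.8, 17.1 and 21.3 CPM (log2 2.01 ± 0.39, adjusted p = 0.0053). All 6 calls of the list were made again in every fit that left out 1 library, and the groups of the named genes were apart.

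Of 18 macrophage surface and secreted genes 6 fell (33.3%) and 1 rose (5.56%), against 4.43% and 5.17% of all genes tested (list median -0.36). Csf1r, the receptor for M-CSF, went from 1095, 663 and 733 to 372, 288 and 464 CPM, 2.22-fold lower (adjusted p = 0.017), and the call was lost without compound replicate 1 or 2 or vehicle replicate 1 (highest adjusted p = 0.076). Aif1, the actin-bundling protein IBA1, went from 147, 156 and 209 to 35.6, 43.9 and 36.7 CPM, 4.41-fold lower (adjusted p = 0.00013). Cd14, the LPS co-receptor, fell 2.62-fold and the sialic acid receptor Siglec1 2.35-fold, and both were called with each library left out. Adgre1, the F4/80 antigen, was at 1390, 1263 and 1363 and 587, 853 and 817 CPM and fell (adjusted p = 0.046, lost without compound replicate 1, 2 or 3 or vehicle replicate 1 or 3, highest adjusted p = 0.19). Lpl, lipoprotein lipase, rose from 5799, 4452 and 5749 to 13649, 10217 and 9201 CPM (2.07-fold, adjusted p = 0.026, lost without compound replicate 1 or vehicle replicate 3, highest adjusted p = 0.12). Among 17 tested lineage factors Maf, a factor of resident macrophages, fell 2.95-fold (639, 474 and 665 to 141, 175 and 285 CPM, adjusted p = 0.0041), as did Nr1h3, Pparg and Klf2 (2.71-fold, 2.26-fold and 2.23-fold), and Mitf rose 2.14-fold. The call for Maf was kept with each library left out. That for Nr1h3 was lost without compound replicate 1 or 3 (highest adjusted p = 0.062), that for Pparg lost without compound replicate 1, 2 or 3 or vehicle replicate 1 or 3 (highest adjusted p = 0.16), that for Klf2 lost without compound replicate 1 or 3 or vehicle replicate 2 or 3 (highest adjusted p = 0.13) and that for Mitf lost without compound replicate 2 or 3 or vehicle replicate 3 (highest adjusted p = 0.066). Spi1, which encodes PU.1, and Cebpa were at log2 -0.44 and -0.43 and did not pass.

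Uptake receptors split by gene. Cd36, a scavenger receptor for oxidised lipid, went from 1033, 818 and 1179 to 3582, 3555 and 4564 CPM, 3.86-fold higher (log2 1.95 ± 0.26, adjusted p = 0.00041), and Axl, a receptor for apoptotic cells, from 29.8, 46.1 and 32.8 to 7.59, 5.71 and 4.86 CPM, 5.91-fold lower (adjusted p = 0.00018). Both pairs of groups were apart, in opposite directions. Its relative Mertk and the mannose receptor Mrc1 were at log2 0.18 and -0.30 and did not pass. C-type lectins split within 1 gene cluster: Clec4n, which encodes Dectin-2, went from 26.7, 16.6 and 39.5 to 119, 127 and 139.8 CPM (4.59-fold higher) and Clec4d rose 2.04-fold, while Clec4a1 went from 370.2, 542 and 410.5 to 102, 124 and 73.9 CPM (4.41-fold lower) and Clec4b1 from 7.01, 8.06 and 9.77 to 0.465, 0.2196 and 0.417 CPM (adjusted p = 0.00037, 0.016, 0.00027 and 0.00047). Over the list, 3 of 13 tested lectins rose (23.1%) and 5 fell (38.5%), against 5.17% and 4.43% of all genes tested. The call for Clec4d was lost without compound replicate 2 or vehicle replicate 1 or 3 (highest adjusted p = 0.068). Of 5 tested Ms4a membrane proteins 3 fell, Ms4a4c the most (11.1, 7.62 and 6.44 to 0.774, 0.439 and 1.67 CPM).

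**Figure D3:**
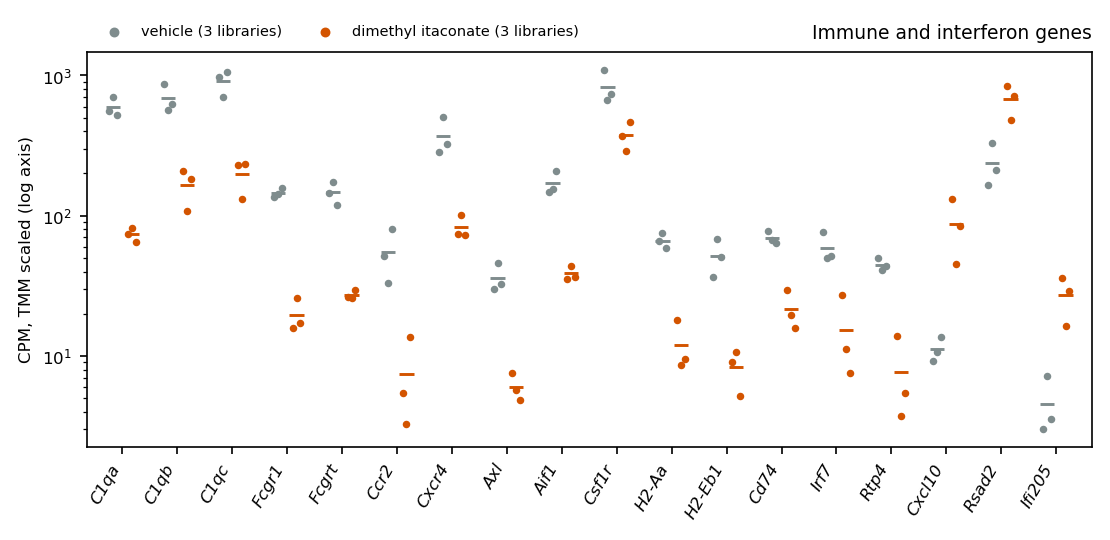
CPM of 18 immune genes in each of the 6 libraries (log axis), grey for vehicle and orange for dimethyl itaconate, with a bar at the mean of 3 libraries. From C1qa to Rtp4 the compound libraries lie below the vehicle libraries, and for Cxcl10, Rsad2 and Ifi205 at the right they lie above them.

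The plot of immune gene levels by library also holds antigen presentation genes. Of 13 tested MHC class II genes 7 fell (53.8%), 6 did not pass and none rose (median -1.61), while 4.43% of all genes tested fell. H2-Aa, the alpha chain of I-A, went from 65.6, 74.8 and 59.02 to 17.97, 8.56 and 9.59 CPM, 5.47-fold lower, H2-Ab1, its beta chain, from 45.3, 29.1 and 43.2 to 10.2, 7.03 and 3.47 CPM, 5.74-fold lower, and H2-Eb1 from 36.7, 68.1 and 50.9 to 8.98, 10.8 and 5.14 CPM, 6.26-fold lower (adjusted p = 0.00024, 0.00069 and 0.00027). The invariant chain Cd74 went from 77.6, 66.7 and 64.01 to 29.4, 19.5 and 15.8 CPM, 3.22-fold lower (adjusted p = 0.0016). Ciita, the class II transactivator, was at 3.01, 10.3 and 2.702 CPM with vehicle and at 0.465, 0 and 0 CPM with the compound (adjusted p = 0.01). The groups of these 5 genes were apart. The peptide-loading genes H2-DMa and H2-DMb1 also fell, and the calls were lost without compound replicate 1 or 2 or vehicle replicate 1 (highest adjusted p = 0.083) for the first and lost without compound replicate 1 or 2 or vehicle replicate 1 (highest adjusted p = 0.13) for the second. Dendritic cell markers, whose cells carry much class II, had the summed levels given above, with Flt3 and Xcr1 at 0 in all 6 libraries. Most of that sum was Bst2, also in the interferon list, at 36.3, 73.5 and 28.3 and 29.6, 36.5 and 14.6 CPM, which did not pass. Siglech went from 3.38, 6.72 and 3.74 to 0.155, 0.22 and 1.67 CPM with groups apart and did not pass (adjusted p = 0.055). Zbtb46 was also lower without overlap but too low to be tested.

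Of 18 tested MHC class I and immunoproteasome genes 4 fell (22.2%) and none rose (median -0.37), while 4.43% of all genes tested fell. The 4 were Psmb9, an immunoproteasome subunit (2.597-fold), the peptide transporter Tap1 (2.17-fold), H2-K1 (2.198-fold) and H2-M3. B2m, the shared light chain, was at 2699.9, 2939 and 3240 and 2842, 1702 and 3008 CPM and H2-D1 at 3619.6, 4801 and 3269 and 3942, 4793 and 3943 CPM, and neither passed. H2-K1 was at 3242, 6758 and 3106 CPM with vehicle and at 1999, 2191 and 1772 CPM with the compound (adjusted p = 0.035, lost without compound replicate 1, 2 or 3 or vehicle replicate 2, highest adjusted p = 0.12). Calls were lost without compound replicate 2 or 3 or vehicle replicate 1 (highest adjusted p = 0.086) for Tap1 and lost without compound replicate 1 or vehicle replicate 3 (highest adjusted p = 0.086) for H2-M3, and that for Psmb9 was kept with each library left out. Class I genes are near-identical in part, so reads between them are uncertain. Among 12 tested costimulatory and checkpoint genes Cd72, an inhibitory lectin, fell from 152, 172 and 118 to 35.002, 24.8 and 25.4 CPM (5.17-fold, adjusted p = 7.2e-05) and the inhibitory receptor Pilra from 9.02, 14.8 and 13.3 to 1.39, 1.76 and 1.39 CPM (8.04-fold). Havcr2 also fell, a call lost without compound replicate 1, 2 or 3 or vehicle replicate 1 or 3 (highest adjusted p = 0.17). Cd40, which T cells engage through CD40L, rose from 3.38, 4.03 and 1.45 to 9.29, 7.69 and 10.3 CPM (adjusted p = 0.037), a call lost without compound replicate 1, 2 or 3 or vehicle replicate 1 or 3 (highest adjusted p = 0.13), and was at adjusted p = 0.051 with upper quartile factors. Cd80, Cd86 and Cd274 were at log2 -0.40, -0.87 and 0.30 and did not pass.

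Interferon genes split in a way that the list median hides. Of 41 tested genes of the type I interferon response 14 fell (34.1%) and 3 rose (7.32%), with a median of -0.80. Over all genes tested 4.43% fell and 5.17% rose. Of those that fell, Rtp4 went from 49.8, 40.8 and 44.1 to 13.8, 3.73 and 5.42 CPM (5.799-fold lower, adjusted p = 0.0011). Ifi44 went from 45.7, 55.5 and 37.8 to 15.5, 10.1 and 8.48 CPM (4.05-fold lower). Oasl2 went from 115, 81.1 and 102 to 46.8, 24.6 and 26.1 CPM (3.07-fold lower) and Ifi27l2a from 199.6, 231 and 145 to 63.03, 33.6 and 66.2 CPM (3.52-fold lower). The groups of these 4 genes were apart. Oas2, Oas3, Ifitm2 and the helicase Dhx58 fell 3.93-fold, 3.44-fold, 3.26-fold and 2.59-fold. Of the 14, 9 were called in every fit that left out 1 library, and the call for Ifit3, at 33.3, 41.7 and 26.2 and 17.7, 3.51 and 15.1 CPM, was lost in each of the 6 fits that left out 1 library (highest adjusted p = 0.083).

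The 3 that rose were called in every such fit. Cxcl10, a chemokine for T cells, went from 9.14, 10.8 and 13.7 to 131, 45.2 and 83.9 CPM, 7.79-fold higher (log2 2.96 ± 0.37, adjusted p = 0.00024). Rsad2, the antiviral radical enzyme viperin, went from 166, 331 and 212 to 841, 482 and 717 CPM, 2.89-fold higher (adjusted p = 0.0058), and Ifi205 from 3.01, 7.17 and 3.53 to 35.9, 16.2 and 28.9 CPM, 6.48-fold higher (adjusted p = 0.00095). In all 3 genes compound replicate 2 was the lowest of the compound libraries and still above every vehicle library. Ifi205 belongs to a family of near-identical genes, so its reads are uncertain, and its relative Ifi204 fell. Isg15, Usp18 and Oas1a were at log2 -1.47, -1.32 and -1.76 and did not pass. Of 22 tested IRF, STAT, SOCS, kinase and receptor genes 4 fell (18.2%) and 1 rose (4.55%). Over all genes tested 4.43% fell and 5.17% rose. Irf7, which amplifies interferon production, went from 76.5, 49.7 and 51.3 to 27.3, 11.2 and 7.505 CPM (3.87-fold lower, adjusted p = 0.0067). Irf9 and Ifngr1 fell as well, and without vehicle replicate 2 the list held 2 genes that fell. The call for Irf9 was lost without compound replicate 2 or 3 or vehicle replicate 1 or 2 (highest adjusted p = 0.097) and that for Ifngr1 was lost in each of the 6 fits that left out 1 library (highest adjusted p = 0.19). Socs1, a feedback inhibitor of STAT signalling, rose from 2.13, 4.03 and 2.49 to 10.8, 8.56 and 6.39 CPM (adjusted p = 0.038), a call lost without compound replicate 1, 2 or 3 or vehicle replicate 1 or 3 (highest adjusted p = 0.16), and was at adjusted p = 0.051 with upper quartile factors. Of 10 tested interferon-inducible GTPases Gbp9, Irgm1 and Ifi47 fell (30%) and Gbp5 rose (10%). The Irgm1 call was lost without compound replicate 1 or 3 (highest adjusted p = 0.066), the Ifi47 call lost without compound replicate 3 or vehicle replicate 1 (highest adjusted p = 0.069) and the Gbp5 call lost without compound replicate 1 or 3 or vehicle replicate 1 or 3 (highest adjusted p = 0.18).

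The promoters of Cxcl10 and Rsad2, which rose, and Ifit3, which fell, are shown because all hold the interferon response element core, which is GAAA repeated after 2 bases of any kind and was searched on both strands, and differ in direction. They are drawn from the same annotation in the same way, 250 bases before the start with matches in capitals: Cxcl10 at chr5:92348890-92349139 (minus strand), Rsad2 at chr12:26456453-26456702 (minus strand) and Ifit3 at chr19:34583279-34583528 (plus strand).
Cxcl10: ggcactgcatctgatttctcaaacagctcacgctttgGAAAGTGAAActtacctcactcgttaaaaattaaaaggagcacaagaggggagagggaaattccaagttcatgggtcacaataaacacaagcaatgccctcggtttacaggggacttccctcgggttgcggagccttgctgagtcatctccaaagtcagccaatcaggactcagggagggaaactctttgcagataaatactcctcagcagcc
Rsad2: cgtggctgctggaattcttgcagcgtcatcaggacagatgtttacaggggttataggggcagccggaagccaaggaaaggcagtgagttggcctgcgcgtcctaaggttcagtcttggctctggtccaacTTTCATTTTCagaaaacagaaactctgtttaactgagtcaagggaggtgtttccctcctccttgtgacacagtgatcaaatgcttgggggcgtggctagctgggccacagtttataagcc
Ifit3: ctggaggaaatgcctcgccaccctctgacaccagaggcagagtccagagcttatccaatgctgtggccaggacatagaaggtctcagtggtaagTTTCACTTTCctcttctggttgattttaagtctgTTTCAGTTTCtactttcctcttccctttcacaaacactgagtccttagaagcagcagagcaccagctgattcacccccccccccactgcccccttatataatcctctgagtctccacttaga
The matches begin 213 bases before the start in Cxcl10, 120 in Rsad2 and 156 and 122 in Ifit3. The core was in 5 of 5 promoters of genes of the 3 interferon lists that rose, in 6 of 16 of those that fell and in 25 of 54 of those that did not fall, a set that includes the first. It was in 3.44% of all promoters, in 3.21% of those of genes tested, in 2.67% of those of genes that rose and in 6.40% of those of genes that fell.

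Some LPS-inducible genes rose from very low levels. To set the size of their levels, 27 genes were taken that stood above 100 CPM in every LPS library and whose vehicle mean was under 1% of the LPS mean, a rule chosen after the values were seen. The rule and the percentages of LPS level use CPM without TMM scaling. The rule itself keeps the vehicle level low, so levels over the set are not compared with vehicle. In compound libraries they stood at a median of 1.09% of their level in LPS libraries, and the medians of compound replicates 1, 2 and 3 were 1.31%, 0.574% and 1.17%. Of the 27, 13 rose without LPS, 10 did not pass and 4 were not tested, while 5.17% of all genes tested rose. Because the rule used the same vehicle libraries, this count cannot show that LPS-inducible genes rise as a set. Acod1, which makes itaconate, lies on chromosome 14 from 103047012 to 103056573 and was at 16.3, 22.4 and 12.1 CPM with vehicle and 164, 61.3 and 144 CPM with the compound, 7.44-fold higher (log2 2.89 ± 0.37, adjusted p = 0.00026). In unscaled CPM its compound level was 1.03% of its LPS level. Ptgs2, the inducible cyclooxygenase, went from 1.38, 0.448 and 0.208 to 11.2, 2.42 and 7.09 CPM (adjusted p = 0.016, lost without compound replicate 1 or vehicle replicate 3, highest adjusted p = 0.096), and Il27 from 2.13, 3.58 and 5.404 to 20.1, 7.91 and 13.1 CPM (adjusted p = 0.018, lost without compound replicate 1 or vehicle replicate 1, highest adjusted p = 0.12). The range ran from 0.0956% for Il6 to 7.46% for the receptor Tarm1. Il1b was at 5.26, 7.62 and 0.416 and 8.52, 5.71 and 5.84 CPM and Tnf at 5.01, 2.24 and 0.831 and 2.94, 2.42 and 2.22 CPM, with overlapping groups, and neither passed. Nos2, the inducible nitric oxide synthase, had 0 counts in all vehicle libraries and 18, 0 and 5 in the compound libraries, which is at least 6.33-fold higher taking 3 counts over the group as the floor, and it was too low to be tested. Libraries of stimulated and unstimulated cells were pooled after barcoding, and whether reads of LPS libraries contributed to these low values was not tested.

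Cytokine genes that passed rose, and sensors and NF-kB pathway genes that passed fell. Of tested members 25% of cytokines rose, and 20% of NF-kB pathway genes and 25% of Toll-like receptor genes and adaptors fell. Over all genes tested 5.17% rose and 4.43% fell. Of 12 tested cytokines 3 rose, and none fell: Il27, the M-CSF gene Csf1 (3.88, 2.24 and 10.8 to 22.5, 21.3 and 18.1 CPM) and Il1f9, which encodes IL-36 gamma (0, 4.48 and 2.29 to 11.5, 19.98 and 19.3 CPM). The call for Csf1 was lost without compound replicate 1 or vehicle replicate 1 (highest adjusted p = 0.065) and that for Il1f9 was kept with each library left out, with adjusted p = 0.15 by DESeq2. Of 13 tested chemokines Cxcl10 and Cxcl9 rose, the Cxcl9 call being lost without compound replicate 3 (adjusted p = 0.072), and Cxcl16 fell from 216, 264 and 194 to 64.4, 66.8 and 71.4 CPM (3.32-fold, adjusted p = 0.00041). Of 20 NF-kB pathway genes 4 fell and none rose, among them the kinase Ikbke (3.59-fold) and the inhibitor Tnip3 (4.304-fold), with adjusted p = 0.00047 and 0.00067. Nfkbia and Tnfaip3, the classical feedback genes, were at log2 0.01 and -0.52 and did not pass. Of 20 tested Toll-like receptor genes and adaptors 5 fell: Tlr2, which senses lipopeptides, went from 26.6, 6.72 and 17.9 to 2.79, 1.98 and 3.06 CPM (6.61-fold lower, adjusted p = 0.0023) and Tlr9, which senses DNA, from 47.1, 65.4 and 93.7 to 19.7, 17.8 and 22.2 CPM (3.44-fold lower, adjusted p = 0.0015). Cd14 fell with them, and so did Tlr7 and Tlr8, whose calls were lost without compound replicate 1, 2 or 3 or vehicle replicate 1 or 3 (highest adjusted p = 0.16) and lost without compound replicate 2 or 3 or vehicle replicate 1 or 3 (highest adjusted p = 0.07). Tlr4, the LPS receptor, was at 92.9, 61.4 and 81.7 and 116, 113 and 124 CPM and did not pass (adjusted p = 0.14). In the inflammasome list Txnip, a thioredoxin-binding protein, fell 2.46-fold (966, 1110 and 1234 to 397, 395 and 555 CPM) and Nlrp3 was at log2 -0.48 and did not pass. The early response genes Dusp4, a MAP kinase phosphatase, and Egr2 rose 3.71-fold and 2.96-fold.

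Among the largest rises were those of protease inhibitors, a transporter and the protein C receptor. Serpinb9b (chromosome 13 from 33027414 to 33040588) went from 3.51, 8.06 and 9.35 to 202, 429.97 and 121 CPM, 37.4-fold higher (log2 5.23 ± 0.50, adjusted p = 3e-05). Its neighbour Serpinb9 (chromosome 13 from 32997061 to 33017955), an inhibitor of granzyme B, went from 11.6, 15.2 and 17.9 to 219, 187 and 190.4 CPM, 13.4-fold higher (adjusted p = 5.1e-06). The compound libraries of Serpinb9b differed more than 3-fold among themselves and those of Serpinb9 hardly at all. The pair are near-identical in part, so reads between them are uncertain. Of 8 tested clade B serpins 3 rose (37.5%, against 5.17% of all genes tested), Serpinb1b being the third, and all 3 calls were made with each library left out. Slc16a9, a member of the monocarboxylate transporter family (chromosome 10 from 70245276 to 70285951), went from 1.25, 1.34 and 1.45 to 45.8, 51.8 and 43.2 CPM, 34.5-fold higher (log2 5.11 ± 0.33, adjusted p = 2.7e-06). Procr, the endothelial protein C receptor, went from 33.8, 18.8 and 18.3 to 302, 492 and 244 CPM, 14.4-fold higher (adjusted p = 2.1e-05). Unc5b, a netrin receptor, rose 12.8-fold, the heparan sulfate polymerase Ext1 10.6-fold, the hyaluronan receptor Layn 10.1-fold and the endothelin receptor Ednrb 8.65-fold.

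Secreted proteases changed as well: in the list of coagulation, fibrinolysis and matrix proteases 5 of 19 tested members rose (26.3%) and 3 fell (15.8%). Over all genes tested 5.17% rose and 4.43% fell. Mmp12, the macrophage elastase, went from 686, 781 and 795 to 4752, 5388 and 5634 CPM, 6.97-fold higher (log2 2.80 ± 0.26, adjusted p = 2.1e-05), and the collagenase Mmp8 from 32.3, 28.7 and 45.7 to 272, 235 and 319.6 CPM, 7.703-fold higher (adjusted p = 2.1e-05). Mmp13 rose 2.601-fold and coagulation factor F10 5.097-fold. Mmp9, gelatinase B, fell from 33.1, 36.3 and 28.3 to 13.9, 7.91 and 5.42 CPM (3.56-fold, adjusted p = 0.004), and the inhibitors Timp3 and Tfpi fell, with calls lost without compound replicate 3 or vehicle replicate 1 (highest adjusted p = 0.053) and lost without compound replicate 2 or 3 or vehicle replicate 1 or 3 (highest adjusted p = 0.11). Mmp8 and Mmp9 are also made by neutrophils, whose summed markers are given above.

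Genes of the TCA cycle passed at close to the share of all genes, none of the respiratory chain passed, and a minority of glycolysis genes rose. In the list of itaconate, TCA cycle and succinate oxidation 2 of 28 rose (7.14%), Acod1 and Ogdh, and 1 fell (3.57%), Suclg2. Over all genes tested the shares were 5.17% and 4.43%. The call for Ogdh was lost without vehicle replicate 1 (adjusted p = 0.057) and that for Suclg2 lost without compound replicate 1 or 2 (highest adjusted p = 0.088). Sdha, the catalytic subunit of succinate dehydrogenase, was at 89.2, 87.8 and 91.03 CPM with vehicle and 69.8, 60.4 and 55.5 CPM with the compound; its groups did not overlap, and it did not pass (log2 -0.53 ± 0.22, adjusted p = 0.15). None of 30 tested nuclear genes of the respiratory chain and ATP synthase passed the edgeR test, against 9.59% of all genes tested. Of 26 tested glycolysis and HIF-1 genes 6 rose and none fell (median 0.27), against 5.17% of all genes rising, led by the glucose transporter Slc2a1 (42.1, 21.5 and 38.03 to 138, 98.2 and 90.5 CPM, 3.16-fold, adjusted p = 0.0024) and Pgk1 (2.34-fold). With upper quartile factors 3 of the 6 still passed, and with 1 library left out the calls for Slc2a1 and Pgk1 were made each time. The call for Hk1 was lost without compound replicate 1 or 3 or vehicle replicate 1, 2 or 3 (highest adjusted p = 0.21), that for Pgam1 lost without compound replicate 1, 2 or 3 or vehicle replicate 1 or 3 (highest adjusted p = 0.12), that for Pkm lost without compound replicate 1 or 2 or vehicle replicate 3 (highest adjusted p = 0.12) and that for Slc16a3 lost without compound replicate 1, 2 or 3 or vehicle replicate 1 or 3 (highest adjusted p = 0.12). Hif1a was at log2 -0.21 and did not pass. In cholesterol genes 1 of 22 tested synthesis genes fell, Insig1, a regulator of sterol synthesis, with the call lost without compound replicate 1 or 3 (highest adjusted p = 0.061), and among 13 tested LXR targets 2 rose and 3 fell, against 5.17% and 4.43% of all genes. Apoc2 and Pltp fell 2.88-fold and 2.31-fold along with the receptor gene Nr1h3. Abca1, a cholesterol exporter, was at log2 -0.55 and did not pass, and neither did Abcg1. Of 34 lysosome genes 3 rose (8.82%) and 2 fell (5.88%), against 5.17% and 4.43% of all genes. The dipeptidyl peptidase Ctsc was among those that fell, at 138, 167 and 142 and 55.6, 21.96 and 65.7 CPM.

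Growth control changed at 2 genes of opposite function. Ccnd1, cyclin D1 (chromosome 7 from 144929931 to 144939831), which drives entry into the cell cycle downstream of M-CSF, went from 103, 258 and 143 to 24.8, 34.5 and 16.8 CPM, 6.62-fold lower (log2 -2.73 ± 0.36, adjusted p = 0.00035). Cdkn1c, the CDK inhibitor p57, went from 29.7, 24.2 and 35.1 to 311, 275 and 335 CPM, 10.3-fold higher (log2 3.36 ± 0.26, adjusted p = 8.1e-06). Neither pair of groups overlapped. In the proliferation list 2 of 36 tested genes fell (5.56%) and none rose (median -0.46), against 4.43% and 5.17% of all genes tested. Cdk1 fell from 31.9, 34.04 and 25.1 to 12.1, 13.4 and 7.64 CPM (adjusted p = 0.0066). Tk1 fell too, with 47 counts over the vehicle libraries against 1 over the compound libraries. The exact counting interval of its compound-to-vehicle ratio ran from 0.000436 to 0.103. Mki67, a marker of cycling cells, was at 17.3, 16.6 and 14.96 and 19.98, 24.2 and 27.7 CPM and did not pass. Of 26 nucleolar ribosome biogenesis genes Nolc1, Nop58 and Gnl3 rose, and 6 rose without vehicle replicate 2. The call for Gnl3 was lost without compound replicate 3 or vehicle replicate 3 (highest adjusted p = 0.076). None of 44 tested cytosolic ribosomal protein genes passed the edgeR test, and 38 of the 44 lay below 0 (median -0.23). Among actin genes Tpm4, a tropomyosin, went from 171, 284 and 165 to 983, 1291 and 566 CPM (4.59-fold higher, adjusted p = 0.00095) and Tmsb4x, the actin-sequestering thymosin beta 4, from 14685, 31284 and 14919 to 8049, 11302 and 8905 CPM (2.15-fold lower, adjusted p = 0.048, lost without compound replicate 1, 2 or 3 or vehicle replicate 2 or 3, highest adjusted p = 0.18).

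Other large decreases were Nptx1, a neuronal pentraxin, which went from 22.9, 38.5 and 18.3 to 0.929, 0.439 and 0.834 CPM (33.4-fold lower, adjusted p = 2.1e-05), Zfp36l1, an mRNA decay factor, which went from 577, 2009 and 1193 to 118, 139 and 217 CPM (7.96-fold lower, adjusted p = 0.00041), and Dab2, an endocytic adaptor, which went from 229.6, 249 and 225 to 31.8, 33.8 and 49.8 CPM (6.08-fold lower, adjusted p = 3.7e-05). Vehicle libraries of Zfp36l1 differed more than 3-fold among themselves, and all stood above the compound libraries. Hpgd, which degrades prostaglandins, Plxdc2 and Tmem176b fell 7.06-fold, 7.25-fold and 6.69-fold, and Pcp4l1 fell 7.83-fold. Among the genes with the most counts Creg1, a secreted lysosomal glycoprotein, went from 4315, 6189.7 and 6566 to 11924, 12442 and 8639.8 CPM (1.93-fold higher, adjusted p = 0.045) and the translation factor Eif3a rose 1.91-fold. The call for Eif3a was lost without compound replicate 1, 2 or 3 or vehicle replicate 1 or 3 (highest adjusted p = 0.093). The call for Creg1 was lost without compound replicate 1 or 2 or vehicle replicate 1 or 3 (highest adjusted p = 0.14), and its adjusted p was 0.056 with upper quartile factors.

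**Figure D4:**
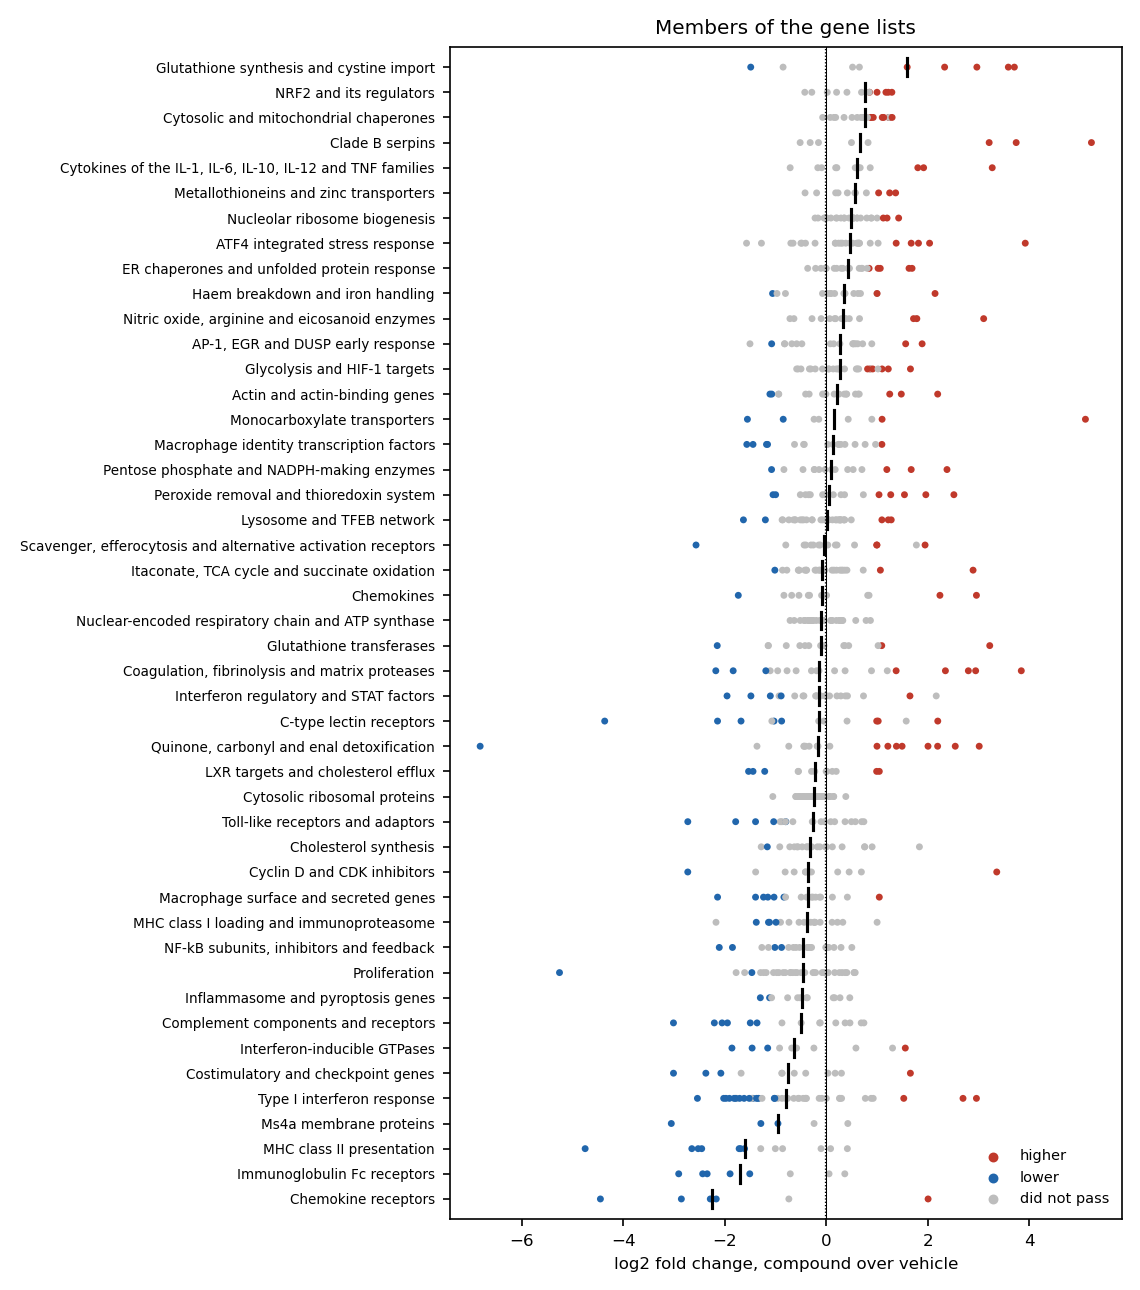
Log2 fold change (compound over vehicle) of the tested members of each gene list, 1 row per list, ordered by the list median (black bar). Red points rose, blue points fell and grey points did not pass, and the dotted line is the median over all genes tested. Glutathione synthesis stands at the top with a median of 1.60 and chemokine receptors at the bottom with -2.24.

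The plot of list members places the lists of glutathione synthesis, NRF2 regulators and chaperones above the line and the antigen, Fc receptor and chemokine receptor lists below it, with several lists, such as C-type lectins and interferon genes, holding members on both sides.

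The same compound effect was measured in cells given LPS, in 6 libraries that share none with those above. One of them was unusual: LPS replicate 3 held 955718 counts, of which 17.6% came from Prdx1. Of the 533 genes that rose without LPS, 518 were tested with it, and 413 (79.7%) had a fold change above 0, against 54.4% of all genes tested in both. With the edgeR test on those libraries 113 were called higher and 13 lower, against 3.18% and 4.43% of genes called in that comparison. Of the 457 genes that fell, 369 were tested and 293 (79.4%) were below 0, against 45.6% of all genes, with 75 called lower and 1 higher. Without LPS replicate 3 the shares were 73.3% and 78%. Serpinb9b, for example, had 14.3, 20.2 and 19.9 CPM with LPS and 266, 221 and 477 CPM with compound plus LPS, Fcgr1 had 520.2, 474 and 447 CPM and then 53.3, 47.1 and 70.97 CPM, and Mmp12 had 478, 518 and 414 CPM and then 4001, 3087 and 4259 CPM. All 3 pairs of groups were apart, in the direction seen without LPS.

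The difference between the 2 settings was tested as an interaction over all 12 libraries. It called 143 genes in which the compound's log2 effect was higher with LPS and 156 in which it was lower, 1.39% and 1.52% of 10285 genes, and 346 and 460 without LPS replicate 3. Of the 188 named genes that could be tested, 28 passed, 18 with a lower effect under LPS and 10 with a higher one. Most were named for changes in the libraries without LPS, which also enter the interaction. The naming therefore sets this number and split in part, and no conclusion is drawn from them. Several LPS-inducible genes that rose with the compound alone were among the 18. Cxcl9 was at log2 2.24 without LPS and -4.05 with LPS (interaction -6.24 ± 0.63, adjusted p = 3.7e-05), and Cxcl10 at 2.96 and -0.86 (interaction -3.78 ± 0.68, adjusted p = 0.0046). Socs1, Cd40, Ifi205, Gbp5 and Il27 passed in the same direction, as did Acod1, at 2.89 and -0.08 (interaction -2.92 ± 0.67, adjusted p = 0.023). Procr, at 3.84 and 0.88, and Mmp13, at 1.38 and -2.15, also had lower effects with LPS. In the other direction Gclc was at 3.59 and 6.76 (interaction 3.19 ± 0.65, adjusted p = 0.012), where the LPS libraries held 13.6, 14.2 and 1.42 CPM, and Pparg was at -1.18 and 3.84 (interaction 5.02 ± 0.90, adjusted p = 0.0045), where they held 0.754, 0 and 0 CPM. Of the 28 calls 14 were made in each of the 12 fits that left out 1 library, among them those for Cxcl9, Cxcl10, Socs1, Cd40, Ifi205, Gbp5, Il27, Procr, Mmp13, Gclc and Pparg. The call for Acod1 was lost in 6 of the 12 (highest adjusted p = 0.087).

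**Figure D5:**
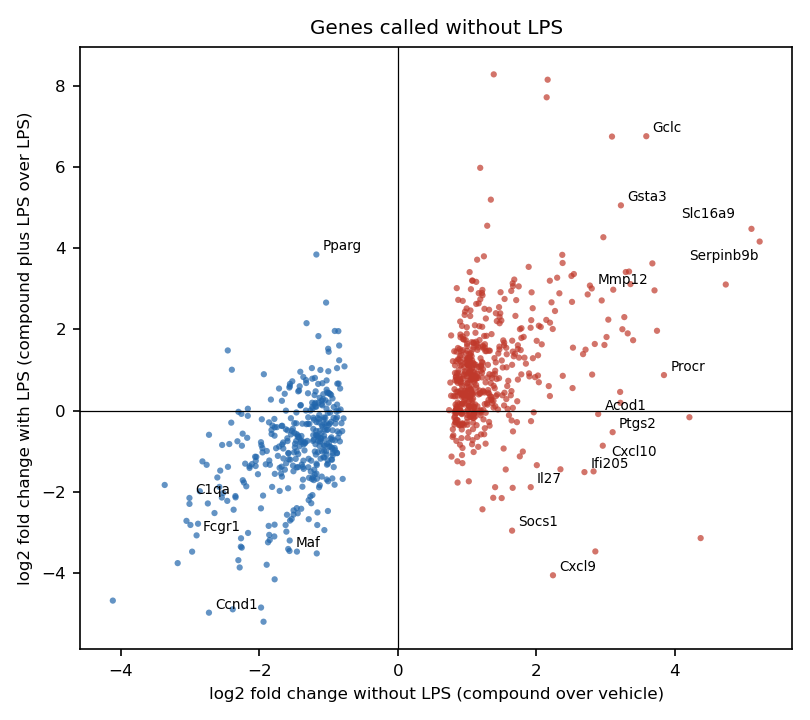
Log2 fold change of the compound without LPS (horizontal axis) and with LPS (vertical axis) for the genes called without LPS and tested in both, red for those that rose without LPS and blue for those that fell. Most red points lie above 0 and most blue points below 0 on the vertical axis, while Cxcl9, Socs1 and Il27 lie at the lower right and Pparg at the upper left.

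The plot of the effect with and without LPS shows both groups of genes, with Gclc and Gsta3 far up on the right and Ccnd1 and Fcgr1 far down on the left.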

How the data were processed

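Poly(A) RNA was read from 3′ ends with barcoded oligo-dT primers and pooled libraries, per the labels' protocols. The values are raw counts per Entrez gene in the table the authors deposited. STAR, HTSeq, DESeq2 and the mm10 build are named, without versions, in the submitters' processing notes. Molecular identifiers are not described, so counting intervals cover counting error only, and whether counting used strand is not given in the sources used here. Symbols came from a RefSeq table of GRCm38.p6 (23969 of 24052 genes).

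Each pair of groups was fitted alone with edgeR 4.0.16 (R 4.3.3): TMM factors, filterByExpr with a minimum count of 10, 1 mean per group, a quasi-likelihood F test, and Benjamini-Hochberg adjustment over all genes tested, called under 0.05. The standard error is the log2 fold change divided by the root of F. Levels with LPS come from the fit of the LPS libraries. The interaction was fitted on 12 libraries.

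Genes were named when among the 12 largest called changes per direction with a mean of at least 10 CPM and groups apart, the 10 called genes with the most counts, or up to 4 called members per list and direction, with other list members given for context and Acod1, Nfe2l2, Keap1, Hmox1, Nos2 and Il1b always. The members and lists were chosen with earlier results of these data known. In data simulated on the 10318 genes, 23% of 2-fold and 86.2% of 4-fold changes were recovered, with 5.21% false calls.

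Alternatives were other size factors, filters, DESeq2 1.42.0, limma-voom (limma 3.58.1), all 12 libraries, a replicate block and leaving out each library. Replicate numbers are in the labels: deviations of same-numbered libraries correlated at 0.183, 0.193 and 0.0466 without LPS, so these were not taken as pairs. With LPS they correlated at 0.161, 0.157 and 0.246, which meets the criterion for pairs used here (every pair over 0.1). The values in the report come from fits without a block, with LPS too, and the blocked fit is an alternative. A few genes are not reported here.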

Additional observations from a re-analysis of the deposited data

Results flagged for a closer look

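In 28 named genes the compound's effect differed between cells with and without LPS by edgeR's interaction test with Benjamini-Hochberg adjustment over 10285 genes. Most were named for changes in the libraries without LPS, which also enter this test, so their number and direction are in part set by the naming. Values are the log2 effect with LPS minus that without it, so a higher effect can be a weaker fall and a lower one a stronger fall. Fcgrt, for example, was at -2.43 without LPS and -0.82 with it, Tlr2 at -2.73 and -0.60, and Maf at -1.56 and -3.46. Genes of interferon and cytokine signalling had lower effects with LPS: Cxcl9 -6.24 ± 0.63 (adjusted p = 3.7e-05), Cxcl10 -3.78 ± 0.68 (adjusted p = 0.0046), Ifi205 -4.13 ± 0.55 (adjusted p = 0.00039), Rsad2 -2.41 ± 0.52 (adjusted p = 0.016), Gbp5 -2.95 ± 0.50 (adjusted p = 0.003), Socs1 -4.56 ± 0.62 (adjusted p = 0.00041) and Cd40 -3.51 ± 0.51 (adjusted p = 0.00066). The same held for the mediators Il27 -3.76 ± 0.60 (adjusted p = 0.0016), Il1b -3.60 ± 0.72 (adjusted p = 0.011), Csf1 -2.78 ± 0.71 (adjusted p = 0.042), Acod1 -2.92 ± 0.67 (adjusted p = 0.023), Ptgs2 -3.55 ± 0.81 (adjusted p = 0.023) and Nos2 -10.16 ± 1.73 (adjusted p = 0.0042). Nos2 rests on very low counts without LPS, and its value depends on the prior count. Lower effects were also measured for Mmp13 -3.47 ± 0.44 (adjusted p = 0.00026), Procr -2.93 ± 0.51 (adjusted p = 0.0039), Ccr1 -3.33 ± 0.72 (adjusted p = 0.017), Maf -1.84 ± 0.43 (adjusted p = 0.026) and Ext1 -1.62 ± 0.43 (adjusted p = 0.049). Effects were higher with LPS for Slc16a10 2.49 ± 0.42 (adjusted p = 0.0029), Pparg 5.02 ± 0.90 (adjusted p = 0.0045), Siglec1 2.07 ± 0.40 (adjusted p = 0.0079), Gclc 3.19 ± 0.65 (adjusted p = 0.012) and Dnajb4 2.08 ± 0.47 (adjusted p = 0.02), and for Clec4b1 5.77 ± 1.32 (adjusted p = 0.023), Csf1r 1.86 ± 0.46 (adjusted p = 0.036), Hmox1 1.98 ± 0.50 (adjusted p = 0.041), Fcgrt 1.66 ± 0.43 (adjusted p = 0.045) and Tlr2 2.17 ± 0.57 (adjusted p = 0.047). Clec4b1 and Pparg rest on very low counts with LPS. Means in LPS and compound plus LPS libraries were 0.227 and 0.765 CPM for Clec4b1, which was too low to be tested there, and 0.251 and 5.97 CPM for Pparg. Of the 28, 14 passed in each of the 12 fits that left out 1 library. The call was lost in 11 of the 12 for Ext1 and Fcgrt, 10 for Csf1, 9 for Csf1r, Hmox1 and Tlr2, and 7 for Clec4b1 and Maf. It was lost in 6 for Acod1 and Dnajb4, 5 for Ptgs2 and Rsad2, 4 for Ccr1 and 1 for Nos2.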

How the results depend on the processing

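None of the 220 called genes described or listed changed sign in the alternatives run, but the balance of rises and falls turned over in all 3 comparisons under some settings. Without LPS, against 533 rises and 457 falls, the counts were 400 rises and 584 falls with upper quartile factors, 821 rises with no filter on low counts, 137 rises and 155 falls when the spread was estimated over all 12 libraries, and 287 to 559 rises and 262 to 474 falls with 1 library left out. With the replicate block there were 841 rises and 640 falls without LPS, 344 and 435 with LPS, and 108 higher and 149 lower interactions, and with LPS 83.8% of the genes called higher without LPS and 75.6% of those called lower had the same direction, against 79.7% and 79.4%. Without LPS every library except compound replicate 3 correlated best with its own number, which is a hint from the data and not from the design. Of these 220 genes upper quartile factors ended 11 calls, limma-voom 3, the replicate block 2, and DESeq2 1. Leaving out vehicle replicate 2 ended 13, and leaving out any other library of the comparison 48 to 64, while the fit over 12 libraries ended 90 of 218. With upper quartile factors rises in glycolysis went from 6 to 3, and falls in the lysosome list from 2 to 4. With LPS, against 273 rises and 380 falls, DESeq2 gave 513 and 700 and the fit over 12 libraries 862 and 774, and leaving out 1 library gave 62 to 680 and 82 to 847. For the interaction, against 143 higher and 156 lower, no filter gave 236 and 261 and DESeq2 421 and 386, and leaving out 1 library gave 52 to 346 and 78 to 460. The cause of these differences was not tested. Vehicle replicate 2, at 2228760 counts, was the least deep library without LPS, and 3 counts there correspond to 1.35 CPM, so low genes are imprecise. In simulated data with LPS 33.2% of 4-fold changes were recovered, and of 4-fold interactions 10.8%.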
